A study of Mus musculus with 6 samples.

Results

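Transcripts of the class I major histocompatibility complex (MHC) were followed in mouse liver through 8 genes chosen by name: the heavy chain genes H2-K1, H2-D1, H2-T23, H2-Q4, H2-Q6, H2-Q7 and H2-Q10, and B2m, the gene of their shared light chain. All 8 were found by symbol among 37991 gene IDs of the count table, and all 8 passed the filter on low counts that left 14686 genes for testing. The samples were livers of 12-week-old males: 3 lacking the sperm protein gene Zpbp2 in both copies on the C57BL/6J background (Zpbp2 KO), and 3 wild-type C57BL/6J animals (WT). The mice carried no other labelled allele or treatment. Which part of Zpbp2 the allele lacks was not given in the sources used here. Whole liver RNA was enriched for poly(A) transcripts and sequenced, 1 library per liver, and replicates are different animals as far as the labels tell.

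A class I molecule is a heavy chain that folds around a short peptide and pairs with beta-2-microglobulin, and without that light chain most heavy chains do not reach the cell surface. The classical molecules show peptides from inside the cell to CD8 T cells, and the nonclassical ones are read mostly by natural killer (NK) cells and unconventional T cells. Interferons raise the transcription of these genes through IRF proteins, among others. NF-kappaB acts at an upstream element called enhancer A, and NLRC5 acts with RFX, CREB/ATF and NF-Y proteins at the nearby X and Y boxes. Hepatocytes are known for low class I levels next to leukocytes and endothelium, with the exception of H2-Q10, whose secreted product they make in quantity.

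Total counts ran from 37904891 to 52955687 per library, and the 8 genes took 0.626% to 0.669% of a Zpbp2 KO library, against 0.531% to 0.580% of a WT library. The targeted gene Zpbp2 had 0 counts in each Zpbp2 KO library and 4, 13 and 7 counts in WT replicates 1, 2 and 3. Over all genes, edgeR (quasi-likelihood F-test, Benjamini-Hochberg adjusted p below 0.05) called 0 higher and 2 lower in Zpbp2 KO livers. The hepatocyte marker Alb was abundant in every library, at 73983, 76206 and 76967 counts-per-million units (CPM) in Zpbp2 KO replicates 1 to 3 and 75168, 66094 and 70077 CPM in WT replicates 1 to 3. The library of Zpbp2 KO replicate 2 stood apart in non-parenchymal markers: 12 Kupffer cell and macrophage markers summed to 201 CPM there, against 598 and 642 CPM in Zpbp2 KO replicates 1 and 3 and 356 to 516 CPM in WT livers. In whole liver RNA, fewer cells of a type and less RNA per cell cannot be told apart.

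The upstream regions of the 8 genes are shown because the elements through which class I genes are induced lie there, and because the genes differ in which of these letters they hold. Each line gives the 180 bases before the annotated start, 5′ to 3′ on the gene's own strand, from RefSeq on GRCm38.p6. For H2-K1, which has 2 annotated starts, the one listed first is shown. Capitals mark matches, on either strand, to an interferon response element (GAAA, any 2 bases, then GAAA, or a relaxed form that opens with GAA), the kappaB site of enhancer A (GGGA, any base, T, any base, then CCC), the CRE core of the X2 box (TGACG), the Y box (ATTGG) and a TATA box (TATAAA). The kappaB letters are nearly symmetric, so that 1 site can match on both strands.
H2-K1 (GRCm38.p6, chr17:34000348-34000527, minus strand): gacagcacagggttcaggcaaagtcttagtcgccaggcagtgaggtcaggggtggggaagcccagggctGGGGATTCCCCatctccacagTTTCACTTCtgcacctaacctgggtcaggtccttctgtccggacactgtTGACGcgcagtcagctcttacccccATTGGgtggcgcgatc
H2-D1 (GRCm38.p6, chr17:35262914-35263093, plus strand): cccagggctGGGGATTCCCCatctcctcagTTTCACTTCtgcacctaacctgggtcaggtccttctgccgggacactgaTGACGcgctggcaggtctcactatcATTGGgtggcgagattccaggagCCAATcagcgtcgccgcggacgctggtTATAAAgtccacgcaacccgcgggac
H2-T23 (GRCm38.p6, chr17:36032702-36032881, minus strand): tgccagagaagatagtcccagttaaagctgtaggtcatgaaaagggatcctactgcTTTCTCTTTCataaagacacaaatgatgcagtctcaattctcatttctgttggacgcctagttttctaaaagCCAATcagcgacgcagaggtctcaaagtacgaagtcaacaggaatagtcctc
H2-Q4 (GRCm38.p6, chr17:35379437-35379616, plus strand): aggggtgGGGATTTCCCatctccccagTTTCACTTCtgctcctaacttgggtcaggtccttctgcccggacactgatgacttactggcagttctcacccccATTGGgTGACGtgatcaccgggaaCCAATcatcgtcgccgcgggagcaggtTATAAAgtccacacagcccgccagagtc
H2-Q6 (GRCm38.p6, chr17:35424670-35424849, plus strand): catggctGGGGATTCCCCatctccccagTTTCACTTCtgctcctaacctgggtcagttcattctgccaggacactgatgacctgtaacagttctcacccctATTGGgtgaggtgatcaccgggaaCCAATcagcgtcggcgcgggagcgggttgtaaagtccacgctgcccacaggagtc
H2-Q7 (GRCm38.p6, chr17:35438975-35439154, plus strand): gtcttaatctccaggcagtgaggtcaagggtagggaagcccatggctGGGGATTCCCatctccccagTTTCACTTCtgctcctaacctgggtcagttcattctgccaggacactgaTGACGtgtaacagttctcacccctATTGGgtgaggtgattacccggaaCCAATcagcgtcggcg
H2-Q10 (GRCm38.p6, chr17:35469909-35470088, plus strand): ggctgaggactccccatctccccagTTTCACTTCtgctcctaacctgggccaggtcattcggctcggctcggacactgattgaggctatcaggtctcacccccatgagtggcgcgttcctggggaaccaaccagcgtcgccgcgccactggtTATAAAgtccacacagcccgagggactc
B2m (GRCm38.p6, chr2:122147507-122147686, plus strand): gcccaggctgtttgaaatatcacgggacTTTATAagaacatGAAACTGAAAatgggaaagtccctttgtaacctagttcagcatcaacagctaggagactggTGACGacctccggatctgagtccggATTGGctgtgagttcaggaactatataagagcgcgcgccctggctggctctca
All 8 promoters matched an interferon response element within 250 bases before to 50 bases after the start, a search window longer than the stretch shown. The strict form was found in H2-T23 and B2m, and the relaxed form in the other 6. Either form occurred in 10.4% of 32851 mouse promoters of the same length. The kappaB letters were found in 5 of the 8 (H2-K1, H2-D1, H2-Q4, H2-Q6 and H2-Q7), against 1.10% of all promoters. These 5 also held an interferon response element and a Y box, a set of 3 found in 16 of the 32851 promoters (0.0487%). The promoters counted include those of the 8 genes themselves. Heavy chain genes are near copies, so their matches are not independent of each other. The X2 letters were found in 5 of the 8, against 20.8% of all promoters. The Y box letters, read on either strand, were found in 7 of the 8, against 37.4%. In H2-T23 the only Y box match was the reverse form, CCAAT, at bases -52 to -48 from the start. The forward X2 letters lay before the forward Y box letters in H2-K1, H2-D1, H2-Q7 and B2m. In H2-Q4 they lay after them, at -73 to -69 against -79 to -75, which is not that arrangement. H2-Q10 was the one without a Y box match on either strand. It also lacked the kappaB and X2 letters, holding an interferon response element and a TATA box. The TATA letters were found in 5 of the 8, against 13.6% of all promoters. They lay at -26 to -21 in H2-D1 and at -28 to -23 in H2-Q4 and H2-Q10. In B2m the match was the reverse form, TTTATA, at -152 to -147, and in H2-K1 it lay after the start, at 36 to 41. A match is a description of letters and no evidence of binding, and a missing match says only that these letters are not in this window.

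Heavy chains are a family of near copies, so reads may have been shared among them or dropped. Counted on GENCODE M21 transcripts of GRCm38, windows of 100 bases, the length of 1 read, occurred exactly in a transcript of another gene for 16.4% of H2-Q7, 10.8% of H2-Q6, 7.28% of H2-T23, 4.64% of H2-D1, 2.66% of H2-Q4 and 2.06% of H2-Q10. H2-Q7 and H2-Q6 shared most with each other (11.7% of H2-Q7 and 8.36% of H2-Q6). For H2-K1 and for B2m the share was 0%. Values of H2-Q6 and H2-Q7 are therefore the least certain as single genes, and those of H2-K1 and B2m carry no such overlap in this annotation. All 7 heavy chain genes lie on chromosome 17 and B2m on chromosome 2.

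Levels spanned a wide range among the 8 genes. Scaled to exon length (CPM per kilobase of the exons joined), B2m stood highest, at 1818 ± 266 in Zpbp2 KO and 1486 ± 102 in WT livers (SD, n = 3 each). On that scale it ranked 27th in Zpbp2 KO and 34th in WT livers among the 14244 tested genes with a length. H2-Q10, the secreted liver heavy chain, followed at 556 ± 59.1 in Zpbp2 KO and 504 ± 48.6 in WT livers per kilobase. H2-K1, a classical heavy chain, stood at 496 ± 33.7 in Zpbp2 KO and 398 ± 16.8 in WT livers, and H2-D1, the other classical one of this strain, at 239 ± 7.72 and 178 ± 9.48. H2-T23 followed at 94.5 ± 4.52 in Zpbp2 KO and 64.3 ± 4.99 in WT livers. H2-Q4, H2-Q6 and H2-Q7 were the lowest, at 24.8 ± 3.65, 21.0 ± 4.07 and 19.6 ± 2.44 in Zpbp2 KO livers and 16.8 ± 2.17, 14.8 ± 1.45 and 13.3 ± 0.596 in WT livers. On this exon scale H2-Q10 and H2-K1 lay within their spreads of each other in Zpbp2 KO livers, and so did H2-Q4, H2-Q6 and H2-Q7. Both depended on the length used. Per kilobase of coding length H2-Q7 led the 3 lowest, at 80.6 in Zpbp2 KO and 54.9 in WT livers. On that coding scale H2-Q10 stood well above H2-K1, at 2478 against 1234 in Zpbp2 KO and 2248 against 989 in WT livers.

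Of the 8 genes, 7 had all 3 Zpbp2 KO livers above all 3 WT livers, the exception being H2-Q10. Among all tested genes 5.56% were separated this way, and 6.01% with all Zpbp2 KO livers below all WT livers. The 8 genes were chosen with earlier results of these data known, and the heavy chains are near copies that may share reads. The shares of all genes set beside them here are therefore description and no test of the set. All 8 fold changes were above 0, as were 52.9% of all tested genes, and their median on the log2 scale was 0.47, against 0.01 over all tested genes, with an interquartile range of -0.13 to 0.17. None of the 8 was called by edgeR over all genes, a fit that called 2 of 14686 genes (0.0136%), while 7 had an unadjusted p below 0.05 with a higher level in Zpbp2 KO livers, as 2.86% of all tested genes did, while 2.93% were lower at that level. DESeq2 called 3 of the 8, H2-T23, H2-Q7 and H2-D1, all higher, in a test that called 0.161% of 15567 genes higher, and limma-voom called 0, in a test that called 0.0136% of genes. With the median of all genes moving by less than 0.1 between scalings, the direction of each of the 8 was the same under TMM, DESeq2's size factors and library totals.

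**Figure D1:**
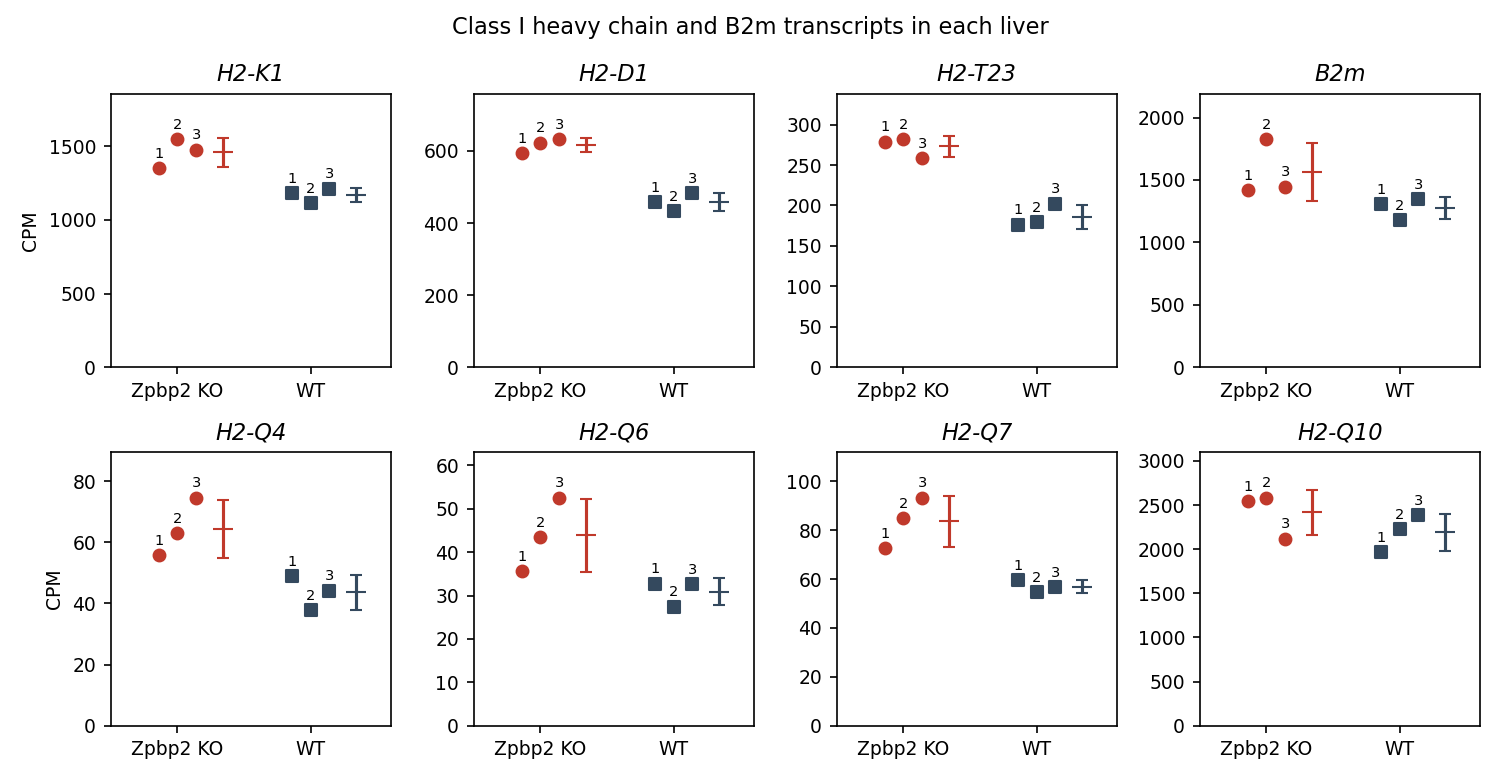
Counts-per-million values (CPM) of each gene in each liver, with Zpbp2 KO livers as red circles and WT livers as dark blue squares, numbered by replicate; the bars beside them are the mean and SD of 3 livers. In every panel except that of H2-Q10 the 3 Zpbp2 KO livers lie above the 3 WT livers.

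H2-K1 (ENSMUSG00000061232) and H2-D1 (ENSMUSG00000073411) encode the classical heavy chains that present peptides to CD8 T cells. H2-K1 had 1352, 1548 and 1476 CPM in Zpbp2 KO replicates 1 to 3, against 1181, 1115 and 1212 CPM in WT replicates 1 to 3. The lowest Zpbp2 KO liver, replicate 1, stood above the highest WT liver, replicate 3. The log2 fold change was 0.32 ± 0.0980 (SE), a 1.25-fold higher level with a 95% interval of 1.07 to 1.46. H2-D1 had 594, 623 and 633 CPM in Zpbp2 KO livers, against 458, 433 and 482 CPM in WT livers. Both groups were tight, with the knockout livers at 617 ± 19.9 CPM and the WT livers at 458 ± 24.4 CPM (SD, n = 3 each). Its log2 fold change was 0.43 ± 0.0907, or 1.35-fold (95% interval 1.17 to 1.56). The adjusted p (edgeR, quasi-likelihood, Benjamini-Hochberg) was 0.714 for H2-K1 and 0.470 for H2-D1, and DESeq2 gave 0.478 and 0.0430 after the same adjustment.

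H2-T23 (ENSMUSG00000067212) encodes the heavy chain of Qa-1, a nonclassical molecule that displays peptides from the leaders of other class I chains to the NK cell receptor CD94/NKG2A. It had 279, 282 and 258 CPM in Zpbp2 KO replicates 1 to 3, against 176, 179 and 202 CPM in WT replicates 1 to 3. The gap between the groups, from 258 down to 202 CPM, was wider than the range within either group. The log2 fold change was 0.56 ± 0.0971, or 1.47-fold (95% interval 1.26 to 1.71), and its unadjusted p of 0.000389 by the model fitted over all genes ranked 19th among 14686. The adjusted p was 0.300 in edgeR (quasi-likelihood, Benjamini-Hochberg) and 0.00316 in DESeq2. With 1 liver left out at a time, the log2 fold change ran from 0.52 to 0.60.

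H2-Q6 (ENSMUSG00000073409) and H2-Q7 (ENSMUSG00000060550) encode heavy chains of the Qa-2 type, nonclassical molecules of which the H2-Q7 product is held to the membrane by a lipid anchor, and H2-Q4 (ENSMUSG00000035929) encodes the Qb-1 antigen. H2-Q7 had 72.6, 84.9 and 93.3 CPM in Zpbp2 KO replicates 1 to 3, against 59.6, 54.5 and 56.6 CPM in WT replicates 1 to 3. Zpbp2 KO replicate 3 was the highest liver and replicate 1 the nearest to WT, and the groups did not overlap. The log2 fold change was 0.56 ± 0.114, or 1.47-fold (95% interval 1.23 to 1.76).

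H2-Q4 had 55.9, 63.0 and 74.6 CPM in Zpbp2 KO livers, against 48.9, 37.7 and 44.1 CPM in WT livers, and H2-Q6 had 35.7, 43.4 and 52.6 CPM against 32.7, 27.4 and 32.6 CPM. In both genes Zpbp2 KO replicate 3 was highest and WT replicate 2 lowest, and the step from the nearest knockout to the nearest WT liver was small. Their log2 fold changes were 0.57 ± 0.141 and 0.50 ± 0.153. Without Zpbp2 KO replicate 3 these stood at 0.45 for H2-Q4, 0.35 for H2-Q6 and 0.47 for H2-Q7. With the counts of H2-Q6 and H2-Q7 added together, the log2 fold change was 0.54 ± 0.124, a value given without a test. The sum does not depend on how counted reads were split between the pair. It does not recover reads that were dropped or assigned to other genes. Adjusted p-values (edgeR, quasi-likelihood, Benjamini-Hochberg) were 0.449 for H2-Q7, 0.616 for H2-Q4 and 0.714 for H2-Q6. DESeq2 gave 0.0355 for H2-Q7, 0.134 for H2-Q4 and 0.389 for H2-Q6 after adjustment.

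H2-Q10 (ENSMUSG00000067235), made mostly in liver and secreted, was the member whose groups overlapped. It had 2544, 2585 and 2121 CPM in Zpbp2 KO replicates 1 to 3, against 1965, 2229 and 2383 CPM in WT replicates 1 to 3. Zpbp2 KO replicate 3, the highest liver for H2-D1, H2-Q4, H2-Q6 and H2-Q7, was lower in H2-Q10 than WT replicates 2 and 3. The log2 fold change was 0.14 ± 0.122, with a 95% interval of -0.14 to 0.42 that holds both no difference and a 1.34-fold higher level. Its adjusted p was 0.837 (edgeR, quasi-likelihood, Benjamini-Hochberg). Without Zpbp2 KO replicate 3 it was 0.23 on the log2 scale, without Zpbp2 KO replicate 2 it was 0.09, and without WT replicate 1 it was 0.07.

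B2m (ENSMUSG00000060802), the light chain gene, had 1417, 1827 and 1447 CPM in Zpbp2 KO replicates 1 to 3, against 1308, 1179 and 1347 CPM in WT replicates 1 to 3. Zpbp2 KO replicate 2 stood well above the rest, and the other two knockout livers lay just above the highest WT liver. The log2 fold change was 0.29 ± 0.126, or 1.22-fold, with a 95% interval of 0.00 to 0.58 on the log2 scale. The adjusted p was 0.798 in edgeR (quasi-likelihood, Benjamini-Hochberg) and 0.978 in DESeq2. Without Zpbp2 KO replicate 2 the log2 fold change was 0.16, and with each library's trend over transcript length and GC content removed it was 0.13. The B2m transcript, at 860 bases of exon, is the shortest of the 8.

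**Figure D2:**
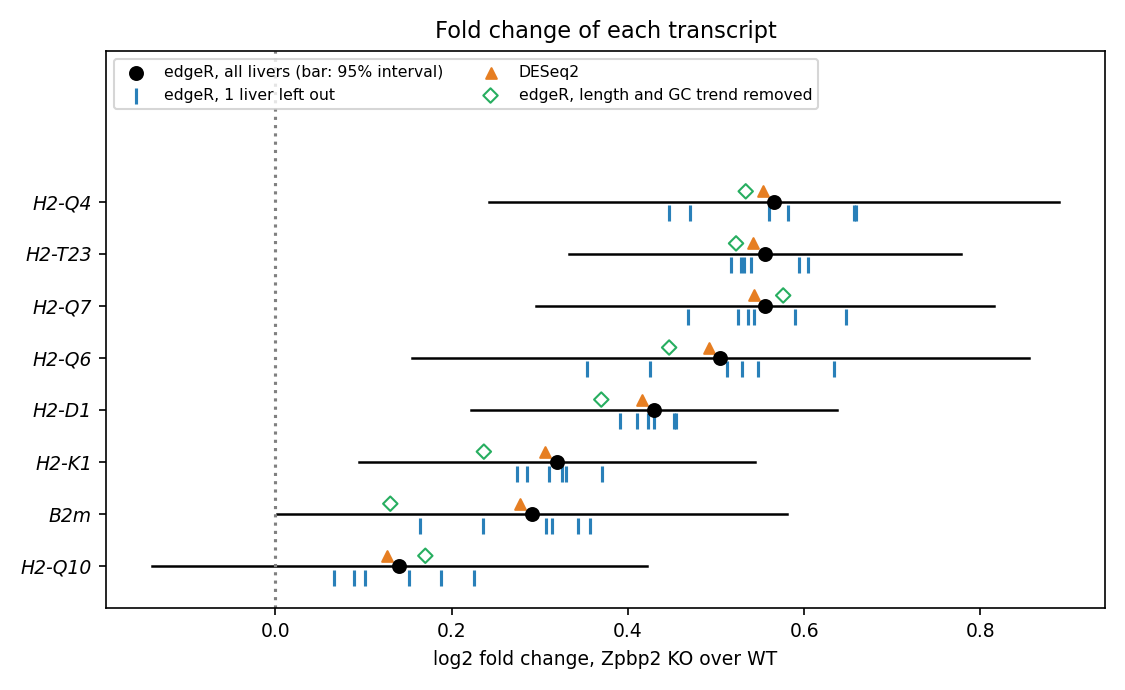
Log2 fold change of each gene, Zpbp2 KO over WT, with genes down the page in order of size; black points and bars are edgeR's estimate with its 95% interval, blue ticks the estimates with 1 liver left out, orange triangles DESeq2 and green diamonds the estimate with the length and GC trend removed. All estimates lie above 0, from 0.07 for H2-Q10 without WT replicate 1 to 0.66 for H2-Q4 without Zpbp2 KO replicate 1.

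Sums and ratios over the heavy chains do not depend on how counted reads were divided among these 7 copies. They do not recover reads that were dropped or assigned to other genes. Summed, the 7 heavy chains had 4934, 5229 and 4708 CPM in Zpbp2 KO replicates 1 to 3, against 3922, 4076 and 4412 CPM in WT replicates 1 to 3. The groups did not overlap, and the log2 fold change of the sum was 0.26 ± 0.103, given without a test because the genes were chosen with earlier results known. Heavy chain counts per B2m count were 3.48, 2.86 and 3.25 in Zpbp2 KO livers, against 3.00, 3.46 and 3.27 in WT livers. Their means were 3.20 ± 0.314 and 3.24 ± 0.230 (SD, n = 3 each), and the log2 ratio differed by -0.02 (exact permutation test, two-sided, p = 0.9, where 0.1 is the smallest p that 3 livers against 3 can give).

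The make-up of the heavy chain counts also needs no scaling between libraries. H2-Q10 was the largest part, at 45.1% to 51.6% of heavy chain counts in Zpbp2 KO livers and 50.1% to 54.7% in WT livers, groups that overlapped. H2-T23 took 5.39% to 5.66% in Zpbp2 KO livers and 4.39% to 4.59% in WT livers. H2-D1 took 11.9% to 13.4% in Zpbp2 KO livers and 10.6% to 11.7% in WT livers. H2-T23 and H2-D1 were the 2 heavy chains of 7 whose shares did not overlap between the groups, both higher in the knockout. For H2-D1 the gap was narrow, from 11.9% down to 11.7%. The shares of a liver are parts of the same total and so depend on each other. With so few livers, groups can also separate by chance. No test or background was made for the shares, so these separations are description only. With H2-Q10 left out of the total, H2-K1 took 56.6% to 58.5% in Zpbp2 KO livers and 59.7% to 60.4% in WT livers, again without overlap but lower in the knockout. H2-T23 then took 9.98% to 11.7% in Zpbp2 KO livers and at most 9.97% in WT livers, just short of overlap, while H2-D1 overlapped. The exact 95% intervals of the shares in single livers were at most 0.238 percentage points wide to each side. They cover counting error only, and copies made by PCR may be among the counts.

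**Figure D3:**
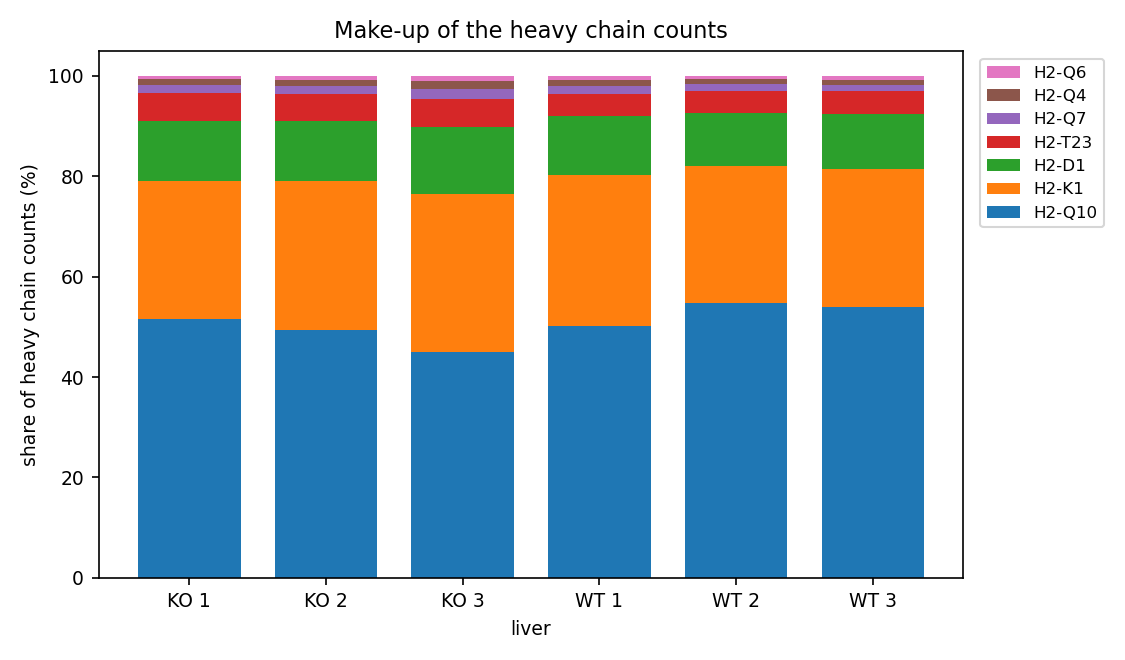
Share of the counts of the 7 heavy chain genes held by each gene, in percent, for each liver, Zpbp2 KO (KO) livers to the left of WT livers. H2-Q10 and H2-K1 make up most of every bar, and the H2-T23 band is wider in the 3 knockout livers (5.39% to 5.66%) than in the WT livers (4.39% to 4.59%).

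Across single livers the 8 genes did not keep 1 common order. Deviations were taken on the log2 CPM scale from the mean of all 6 livers. WT replicate 2 was the lowest liver for 6 of the 8, H2-K1, H2-D1, H2-Q4, H2-Q6, H2-Q7 and B2m, and also for the summed B cell, dendritic cell and hepatocyte markers. Zpbp2 KO replicate 3 was the highest for H2-D1 and the 3 lower H2-Q genes, while replicate 2 was the highest for H2-K1, H2-T23, H2-Q10 and B2m. Measured by the root mean square difference from the mean profile of the 8, H2-D1 was nearest (0.0317) and H2-Q10 farthest (0.204), where the mean profile itself had a size of 0.220. The 6 genes outside the set with the profile nearest to that mean over the same 6 livers were Tlcd1 (0.0451), H2-T22 (0.0547), Lyrm1 (0.0570), Gm12216 (0.0624), Gm16567 (0.0635) and Nup43 (0.0653). H2-T22 is itself a nonclassical class I heavy chain gene, and the others include a TLC-domain gene, Tlcd1, and a nuclear pore gene, Nup43.

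Cell markers varied across the livers too. Zpbp2 KO replicate 2, the highest liver for B2m and H2-K1, was the lowest of all 6 for Kupffer cell markers (201 CPM) and for 9 endothelial markers (170 CPM), against 303 and 406 CPM in the other knockout livers and 259 to 368 CPM in WT livers. The leading Kupffer cell markers were the C-type lectin gene Clec4f, at 131, 47.9 and 124 CPM in Zpbp2 KO replicates 1 to 3 and 99.0, 83.8 and 84.8 CPM in WT replicates 1 to 3, with Cd5l and Csf1r. The 17 T and NK cell markers summed to 21.7, 13.8 and 27.4 CPM in Zpbp2 KO livers and 21.6, 16.2 and 16.2 CPM in WT livers, led by the leukocyte phosphatase gene Ptprc. Ptprc marks leukocytes in general and held 10.4, 5.74 and 15.2 CPM of these sums in Zpbp2 KO replicates 1 to 3. In WT replicates 1 to 3 it held 11.6, 9.77 and 8.28 CPM, so the sums are not of T and NK cells alone. The 8 B cell markers summed to 16.6 to 19.4 CPM in Zpbp2 KO livers and 9.92 to 18.5 CPM in WT livers, and the 7 dendritic cell markers to at most 13.2 CPM in Zpbp2 KO and 11.5 CPM in WT livers. None of these leukocyte or endothelial sums separated the groups, and 0 of their markers was at 0 in all libraries. Gene by gene, most leukocyte markers lay above 0, as did 52.9% of all tested genes. At an unadjusted p below 0.05 (edgeR), 1 B cell, 1 T and NK cell, 1 dendritic cell and 0 Kupffer cell markers were higher, and 0 were lower. The median log2 fold change was 0.49 for B cell markers (7 of 8 above 0) and 0.30 for T and NK cell markers (14 of 16 tested). It was 0.26 for dendritic cell markers (7 of 7) and 0.12 for Kupffer cell markers (11 of 12). The median was 0.01 over all tested genes and 0.47 for the 8 class I genes. For endothelial markers it was -0.03, with 4 of 9 above 0. The 5 cholangiocyte markers summed to 44.2 to 78.4 CPM in Zpbp2 KO livers and 49.9 to 72.8 CPM in WT livers, and the 6 stellate cell markers to 197 to 270 CPM and 207 to 265 CPM. Of the cholangiocyte markers 4 of 5 lay above 0, with a median of 0.21, and of the stellate cell markers 3 of 6, with -0.05. The hepatocyte sum did separate the groups, at 111563 to 116859 CPM in Zpbp2 KO livers and 103826 to 110361 CPM in WT livers, but Alb made up most of it and 0 of its 10 markers did so alone. Of these, 8 lay above 0, with a list median of 0.10, and 2 below it, Tat (-0.43 ± 0.148) and Apob (-0.33 ± 0.168). Without Zpbp2 KO replicate 2 the log2 fold changes were 0.27 for H2-K1, 0.42 for H2-D1, 0.53 for H2-T23, 0.54 for H2-Q7 and 0.16 for B2m. The part of cell make-up in the class I values was not tested.

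**Figure D4:**
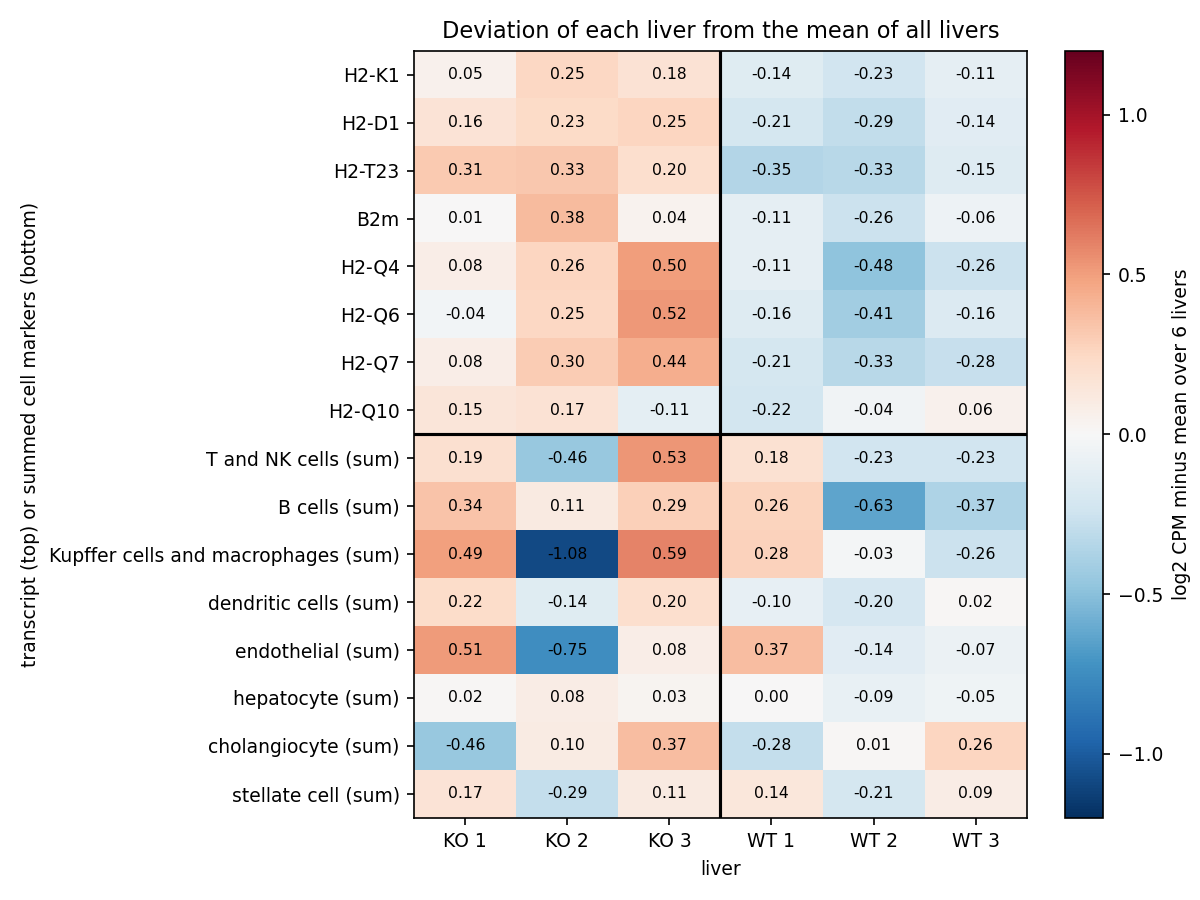
Log2 CPM of each class I gene (upper rows) and of the summed markers of each cell type (lower rows) in each liver, as the deviation from the mean over 6 livers, Zpbp2 KO (KO) livers to the left of WT livers. The upper rows are mostly red in the knockout and blue in WT livers, while the Kupffer cell row is lowest in KO 2 (-1.08).

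Other genes of the pathway were listed by their roles, and 0 of them were called by edgeR (quasi-likelihood, Benjamini-Hochberg) or by DESeq2 at an adjusted p below 0.05. The counts of each list stand beside the shares of all tested genes, 52.9% above 0 and, at an unadjusted p below 0.05, 2.86% higher and 2.93% lower. Groups did not overlap in 5.56% of all tested genes with Zpbp2 KO livers higher and in 6.01% with them lower. Among other class I heavy chain genes, 18 of 22 listed were in the table and 9 were tested, of which 8 lay above 0 with a median log2 fold change of 0.26. At an unadjusted p below 0.05, 2 were higher and 0 lower. H2-T22, whose product is a ligand of some gamma delta T cells, had 95.6, 107 and 97.1 CPM in Zpbp2 KO livers, against 76.0, 74.1 and 82.7 CPM in WT livers (0.37 ± 0.0957). H2-T10, its close relative, averaged 3.88 ± 1.16 CPM in Zpbp2 KO and 2.51 ± 0.127 CPM in WT livers (SD, n = 3 each), and H2-Q5 7.78 ± 3.00 and 5.31 ± 0.120 CPM, both without overlap. H2-Bl stood at 0.758 ± 0.591 CPM in Zpbp2 KO and 0.391 ± 0.139 CPM in WT livers, with overlap, and Zpbp2 KO replicate 3 was the highest liver for all 3.

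Of 7 listed molecules that resemble class I and also pair with beta-2-microglobulin, 6 were tested, 4 above and 2 below 0, with a median of 0.10, and 0 had an unadjusted p below 0.05. Hfe, which takes part in iron sensing by hepatocytes, averaged 48.6 ± 2.60 CPM in Zpbp2 KO and 48.8 ± 2.24 CPM in WT livers (-0.01 ± 0.0931). Fcgrt, the neonatal Fc receptor that recycles IgG and albumin, averaged 160 ± 6.97 and 164 ± 21.0 CPM (-0.04 ± 0.112). Cd1d1, which presents lipids to NKT cells, averaged 217 ± 13.1 and 201 ± 24.3 CPM (0.11 ± 0.114), and Mr1, which presents vitamin B metabolites to MAIT cells, 5.02 ± 1.02 and 4.68 ± 0.740 CPM. In all 4 the groups overlapped. These genes and the 8 members were not tested against each other.

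Of 13 listed genes that cut, carry and load the peptides, 12 were tested, 10 above 0, with a median of 0.23, and at unadjusted p-values below 0.05 there were 5 higher and 0 lower. Tap1, a subunit of the peptide transporter into the endoplasmic reticulum, averaged 40.8 ± 6.69 CPM in Zpbp2 KO and 28.4 ± 4.07 CPM in WT livers (0.52 ± 0.153), without overlap. The immunoproteasome genes Psmb8 and Psmb10 stood at 0.51 ± 0.161 and 0.50 ± 0.132, and the proteasome activator gene Psme2 at 0.28 ± 0.108. The other members without overlap were Tap2 (0.28), Psme1 (0.24) and Tapbpl (0.21). In all, 7 of the 12 were separated with Zpbp2 KO livers higher, as were 5.56% of all tested genes. The list was chosen with earlier results known, so these counts are description only. The 5 with overlapping groups were Tapbp (0.12), Calr (0.19), Pdia3 (0.09), Canx (-0.11) and Erap1 (-0.08).

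Of the 16 listed transcription factors of class I genes, all were tested, 11 above and 5 below 0, with a median of 0.05. With an unadjusted p below 0.05, 0 were lower and 2 higher. Irf2, a DNA-binding factor of the interferon response element, was among them, at 65.7 ± 6.87 CPM in Zpbp2 KO and 52.2 ± 4.03 CPM in WT livers (0.33 ± 0.112). Nfya, a Y box subunit, had a log2 fold change of 0.30 ± 0.131, and Atf1, of the CREB/ATF family, -0.13 ± 0.0991. Nlrc5, the class I transactivator, was named after its values were seen and stood at 29.6 ± 9.42 and 25.3 ± 2.06 CPM, with overlap (0.23 ± 0.211).

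Of the interferon receptors and their signalling genes, 9 of 10 lay below 0, and single genes ran from -0.27 to 0.37. Their median of -0.06 was inside the interquartile range of all tested genes, -0.13 to 0.17. With an unadjusted p below 0.05, 1 was higher and 0 lower. Jak1 (-0.11 ± 0.109), Jak2 (-0.22 ± 0.151) and Ifnar2 (-0.07 ± 0.0856), which pass on the interferon signal, had unadjusted p-values above 0.05. Ifnar2 had all Zpbp2 KO livers (55.9 to 57.5 CPM) below all WT livers (58.0 to 61.7 CPM), as 6.01% of all tested genes did. Usp18, an interferon-induced gene that limits type I interferon signalling, was the 1 above 0, at 12.7, 13.0 and 12.2 CPM in Zpbp2 KO livers, against 10.7, 9.04 and 9.70 CPM in WT livers (0.37 ± 0.121). Of 9 interferon genes listed, 8 were in the table and 0 passed the filter on low counts, with 21 counts over all libraries. Ifng, made by T and NK cells, held 3, 7 and 7 of these in Zpbp2 KO replicates 1 to 3, against 2, 1 and 0 in WT replicates 1 to 3. These groups did not overlap, but Ifng was named after its values were seen. No test was made of so few counts, and how often genes this low separate was not computed.

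Receptors that read class I molecules were scarce in whole liver. Of 14 listed, 12 were in the table and 5 were tested, all 5 above 0 with a median of 0.33, and 0 had an unadjusted p below 0.05. Klrk1, the activating NK receptor NKG2D, averaged 1.51 ± 0.372 CPM in Zpbp2 KO and 1.22 ± 0.460 CPM in WT livers, and Pirb, an inhibitory receptor of myeloid and B cells, 4.64 ± 1.86 and 3.82 ± 0.514 CPM (SD, n = 3 each). Cd8a, the coreceptor of T cells for classical class I, held 11, 10 and 25 counts in Zpbp2 KO replicates 1 to 3 and 17, 6 and 7 counts in WT replicates 1 to 3, with overlap. Klrc1 and Klrd1, whose products form the CD94/NKG2A receptor of Qa-1, held 7 to 24 and 6 to 21 counts per library over both groups.

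**Figure D5:**
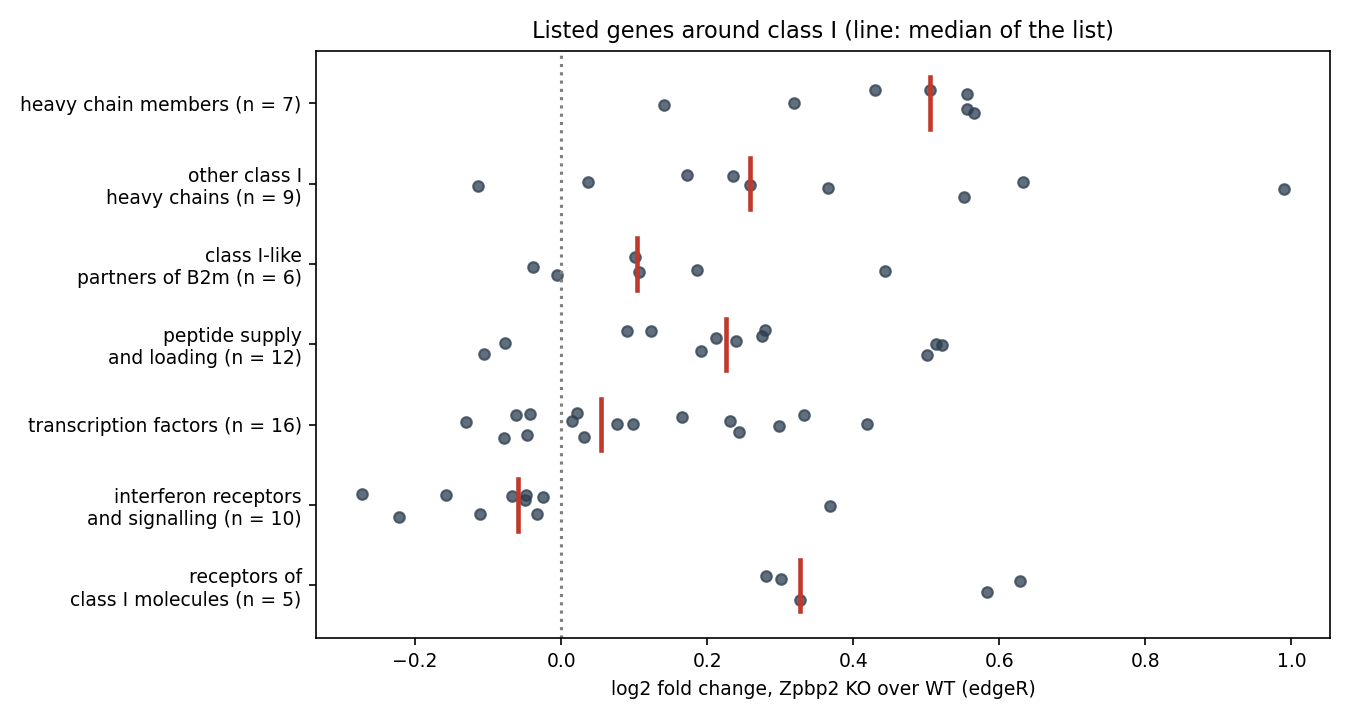
Log2 fold change by edgeR, Zpbp2 KO over WT, of each tested gene of 7 lists around class I, with the number of genes in brackets; each point is a gene and the red line the median of its list. Medians run from -0.06 for interferon receptors and signalling to 0.50 for the 7 heavy chains described here.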

How the data were processed

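RNA-seq counts of 6 livers were used (3 Zpbp2 KO, 3 WT), grouped by sample title. The deposited table holds raw counts per Ensembl gene ID. STAR, Picard, HTSeq and the build mm9 are named per the submitters' processing notes. Versions, annotation and strand setting were not given in the sources used here, so no gene coordinates of the counts are given, and reads of near copies may have been dropped or shared. The libraries came from 250 ng of total RNA and a directional kit, read as pairs of 100 cycles, per the labels' protocols. Symbols came from GENCODE M21 (32919 of 37991 IDs). Exon and coding lengths came from the same release and promoters from RefSeq (GRCm38.p6, 8 of 8 genes).

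Genes were kept by filterByExpr (minimum count 10), scaled by TMM and tested, Zpbp2 KO against WT, with edgeR 4.0.16 (quasi-likelihood F-test, two-sided) in R 4.3.3. A gene was called at an adjusted p below 0.05 (Benjamini-Hochberg, over 14686 genes). CPM uses TMM-scaled totals, and log2 CPM a prior count of 2. Alternatives were DESeq2 1.42.0, limma-voom (limma 3.58.1), 2 other scalings, 2 other filters, a robust fit, the replicate block, removal of length and GC trends (14244 genes), and each library left out. Replicates differed by a chi-square of 20.3 to 103 per gene, far above sampling noise. The members and lists were chosen with earlier results of these data known. Named genes were all 8 members; from a pathway list the members at a mean of at least 1 CPM if 6 or fewer, otherwise the 4 with the smallest p; from a marker list the up to 3 most abundant; and the 6 nearest profiles. Genes outside this rule (Tap2, Psme1, Tapbpl, Tapbp, Calr, Pdia3, Canx, Erap1, Tat, Apob, Nlrc5, Ifng, Cd8a, Klrc1, Klrd1) were chosen after their values were seen. Of the listed genes, 8 symbols were not matched in the table and were not analysed here. The values of 1 gene that the rule names are not reported here.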

Additional observations from a re-analysis of the deposited data

How the results depend on the processing

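The 8 class I genes kept a fold change above 0 under every alternative run. The median of the 8 ran from 0.38 (without Zpbp2 KO replicate 3) to 0.50 (without Zpbp2 KO replicate 1), and 6 or 7 of the 8 had an unadjusted p below 0.05 in each. Calls depended on the tool: DESeq2 called 3 members, H2-T23 (0.54, adjusted p = 0.00316), H2-Q7 (0.54, adjusted p = 0.0355) and H2-D1 (0.42, adjusted p = 0.0430), while edgeR and limma-voom called 0 under each setting tried. Over the other alternatives the adjusted p ran from 0.175 to 0.776 for H2-T23 and from 0.278 to 0.992 for H2-D1, and was at least 0.278 for H2-Q7. DESeq2 called 74 genes in all and edgeR without a filter on low counts 12, against 2. With 1 liver left out edgeR called 2 to 4 genes, the 4 without Zpbp2 KO replicate 2. B2m stood at 0.16 without that liver and at 0.13 after removal of length and GC trends. The log2 ratio of summed heavy chains to B2m (-0.02) ran from -0.086 to 0.056 with 1 liver left out, turning to 0.056 without Zpbp2 KO replicate 2 and to 0.025 without WT replicate 2. The cause was not tested. Livers with the same replicate number did not pair: their deviations from the group means correlated at 0.14, 0.20 and -0.24. With the replicate block, 2 genes were called and the log2 fold changes were 0.32 for H2-K1, 0.43 for H2-D1, 0.56 for H2-Q4, 0.49 for H2-Q6, 0.55 for H2-Q7, 0.14 for H2-Q10, 0.56 for H2-T23 and 0.28 for B2m, with a median of 0.46. Of 230 values recomputed, 221 kept their direction and side of the threshold or moved by less than the stated spread. At this depth 0 of 8 interferon genes and 5 of 12 receptor genes in the table passed the filter on low counts.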
